A study of Mesocricetus auratus with 11 samples.

Results

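Of the 2010882 CpGs listed in any of the 11 libraries, 81297 had at least 10 reads in every library, and 7532 of these are described here. They are CpGs of medium density, with 10 to 19 listed CpGs within 250 bp on each side (the CpG itself included), whose pooled methylation in primary fetal replicates 1 and 2 was below 20%. They made up 52.3% of the 14398 medium-density CpGs with that coverage. Because replicates 1 and 2 of the primary cells chose these CpGs, their low levels there are a description, and primary replicates 3 and 4, from other fetuses, stood for the primary cells in each comparison. A methylation level is the percent of reads over a CpG that were read as C after bisulfite treatment.

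The cells were from the Syrian hamster (Mesocricetus auratus), and DNA methylation was read by reduced representation bisulfite sequencing, which samples fragments rich in CpGs. The primary group held untreated cells of 4 individual female fetuses at gestation day 13.5, a mix of ectodermal and mesodermal cells freed of head, viscera and limbs and kept in culture for less than 3 days and 1 passage. MT2 is a female line, used at an estimated passage 28. It goes back to 1 colony in which benzo[a]pyrene at 5 µg/mL had caused morphological transformation and which had bypassed senescence. From 1 thawed MT2 stock, 4 wells received vehicle (0.05% DMSO) and 3 analysed wells received 5-aza-2'-deoxycytidine (5aCdR, 5 µM), both for 48 h, so tests among MT2 wells measure the spread between wells of 1 line. MT2 and primary cells also differed in time in culture and in medium, which cannot be told apart here from transformation.

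CpG methylation is set by de novo DNA methyltransferases and copied to the new strand at replication by the maintenance enzyme DNMT1. In mammalian genomes most isolated CpGs are methylated, while the CpG-rich stretches called CpG islands, many of them at promoters, are mostly kept unmethylated, and their flanks, called shores, have intermediate CpG density. Transformed cell lines are known for gains of methylation at CpG islands and losses elsewhere. 5aCdR is a cytidine analog that is built into DNA and traps DNA methyltransferases, so methylation is lost as cells divide.

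The CpGs lay on 371 scaffolds, in 3590 non-overlapping tiles of 1 kb. Of these tiles 994 held at least 3 of the CpGs, together 4245 of the 7532. The median density was 14. A dense CpG, one with 20 or more listed CpGs nearby, was within 500 bp of 4080 of them (54.2%), and 2498 (33.2%) had none within 2000 bp. The median distance to a dense CpG was 367 bp. Density counts listed CpGs only, and whether these CpGs flank CpG islands was not tested. Another CpG covered in all 11 libraries and at 20% or more in primary replicates 1 and 2 lay within 250 bp of 1124 of them (14.9%). For 5397 (71.7%) all such covered neighbours were below 20%, and 1011 (13.4%) had no covered neighbour. Both strands were listed in all 11 libraries for 0.969% of the CpGs, so nearly all levels rest on 1 strand in at least 1 library.

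Libraries held 17834610 to 46148127 reads over listed positions. At the 7532 CpGs the median depth was 31 reads in vehicle replicates 2 and 3, 52 and 57 in vehicle replicates 4 and 1, 59 to 72 in the 5aCdR libraries, 44 and 59 in primary replicates 3 and 4, and 34 and 35 in primary replicates 1 and 2. Molecules copied by PCR are counted more than once, so depth in reads can exceed depth in molecules. At tiles the spread between libraries of 1 group was 9.88 times that of independent reads in the comparison of vehicle with primary cells (the dispersion to which the test drew all tiles). Mitochondrial CpGs, 10 to 29 per library, were read as methylated in 3.08% ± 0.455 (SD, n = 4) of vehicle reads, 2.44% ± 0.167 (SD, n = 3) of 5aCdR reads and 4.72% ± 0.359 (SD, n = 2) of reads in primary replicates 3 and 4. MT2 was thus lower than the primary cells there, the opposite order to that of the medium-density CpGs below. 5aCdR was lower than vehicle there, the same order as at the medium-density CpGs.

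In the primary cells these CpGs stayed low in the fetuses that had not chosen them. Their mean level was 4.83% in primary replicate 3 and 5.55% in replicate 4, against 2.27% and 2.08% in the choosing replicates 1 and 2. With the reads of replicates 3 and 4 pooled, 9.19% of the CpGs were at 20% or more and 2.00% at 50% or more. A level of exactly 0 was read at 82.1% of them in replicate 3 and 76.2% in replicate 4. The label "unmethylated" therefore held for most, and a minority was methylated in 1 or both of the other fetuses: 314 were at 50% or more in 1 of them and 73 in both.

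CpGs on either side of the 20% limit show how it acted. The 377 medium-density CpGs at 15 to 20% in pooled primary replicates 1 and 2 had means of 19.3% and 22.5% in primary replicates 3 and 4, 25.4% over the vehicle libraries and 20.9% over the 5aCdR libraries. The 355 at 20 to 25%, just outside, had 29.8% and 26.9% in primary replicates 3 and 4, 33.4% with vehicle and 28.5% with 5aCdR. Both sides ran in the same order, with vehicle the highest.

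The first comparison asked how the transformed line differed from primary cells at CpGs that primary cells leave unmethylated. The 4 vehicle libraries had mean levels of 9.47%, 9.22%, 9.16% and 9.03%, and primary replicates 3 and 4 had 4.83% and 5.55%. Each vehicle library lay above both primary libraries, and the wells differed among themselves by less than the fetuses did. Vehicle averaged 9.22% ± 0.183 (SD, n = 4) and the primary cells 5.19% ± 0.511 (SD, n = 2). Vehicle was thus higher by 4.03 percentage points, or 1.78 times the primary level (exact two-sided permutation test, p = 0.0667, the smallest p that the 15 splits allow). The vehicle libraries were wells of 1 line, so this p does not measure the spread between lines. When primary replicates 3 and 4 chose the CpGs and replicates 1 and 2 were compared, MT2 was again higher, by 4.17 points (exact permutation, p = 0.0667). Either choice asked for low levels in primary cells, which favours a higher level in MT2, so the swap does not remove this limit.

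**Figure D1:**
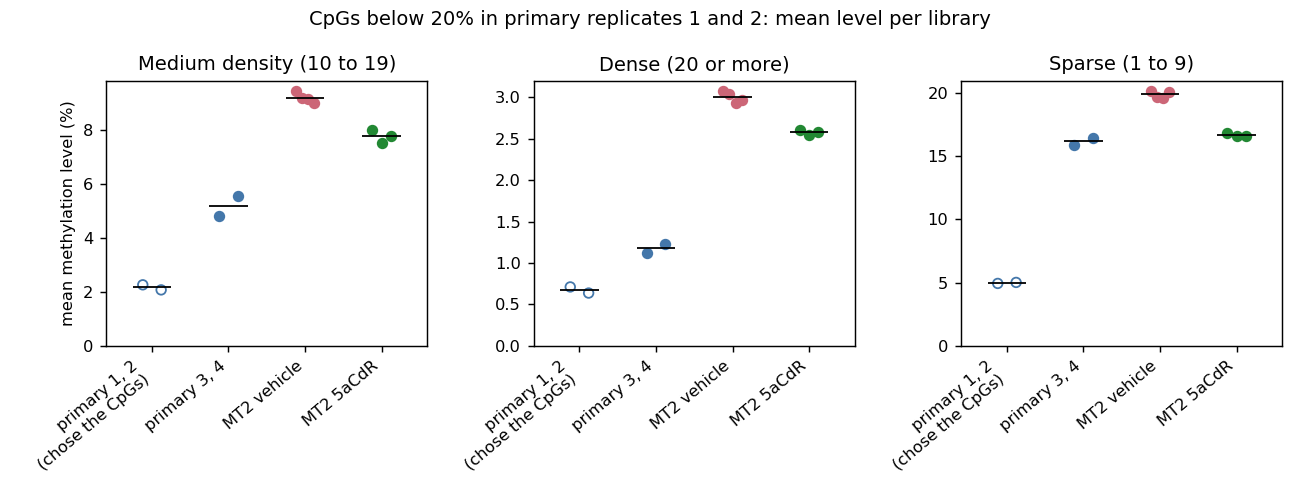
Mean methylation level (%) per library of CpGs below 20% in pooled primary replicates 1 and 2, for medium density (left), dense (middle) and sparse (right) CpGs, with 1 point per library, a bar at the mean, and open circles for the libraries that chose the CpGs. At medium density the vehicle libraries lie between 9.03% and 9.47%, the 5aCdR libraries between 7.54% and 8.0%, and primary replicates 3 and 4 at 4.83% and 5.55%.

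Levels were unevenly spread over the CpGs. The median level was 0 in every library, and the 753 CpGs with the highest mean in vehicle, 10% of all, carried 60.3% of the summed level there. The 753 highest in primary replicates 3 and 4 carried 73.1% there, and the 753 highest after 5aCdR carried 61.4%. Vehicle was above the primary cells in both parts: each group's own 753 highest averaged 55.6% and 38.0%, and the rest 4.06% and 1.55%. Below 5% in all 9 libraries other than the choosing ones were 3028 CpGs, or 40.2%. The share of CpGs at 50% or more was 6.73%, 7.46%, 7.51% and 6.32% in vehicle replicates 1 to 4 and 2.87% and 3.24% in primary replicates 3 and 4 (exact permutation test, p = 0.0667, adjusted over 6 shares 0.1). The share at 80% or more was 2.62% to 4.13% with vehicle and 1.04% and 1.06% in the primary libraries (exact permutation, p = 0.0667, adjusted 0.1). The share at exactly 0 was 73.9% with vehicle and 79.2% in primary replicates 3 and 4, with overlap (exact permutation, p = 0.267). The share below 5% was 77.0% and 82.9%, without overlap (exact permutation, p = 0.133). Vehicle replicates 2 and 3, the shallowest, had the most CpGs at 80% or more, and the part of depth in these shares was not tested. At similar depth, vehicle replicate 1 (57 reads) had 2.84% of CpGs at 80% or more and primary replicate 4 (59 reads) had 1.04%.

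**Figure D2:**
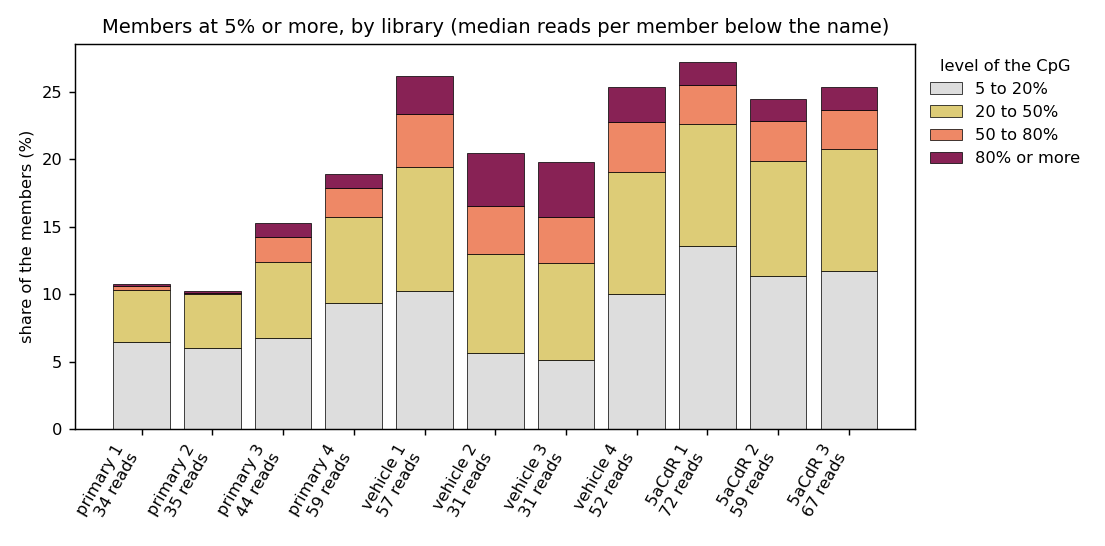
Share (%) of the 7532 CpGs at 5 to 20%, 20 to 50%, 50 to 80% and 80% or more, stacked per library, with the median reads per CpG under each name. The part at 50% or more is 6.32% to 7.51% in the vehicle libraries, 4.57% to 4.58% in the 5aCdR libraries, and 2.87% and 3.24% in primary replicates 3 and 4.

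High levels in MT2 were often read in some wells and not in others. Median depth was 31 reads in vehicle replicates 2 and 3, and the part of depth in the following counts was not tested. Of the CpGs at 50% or more in any vehicle library, 626 were so in 1 library, 239 in 2, 169 in 3 and 125 in all 4. Of these 125, 42 were below 20% in both primary replicates 3 and 4. In the other direction, 12 CpGs were at 50% or more in both of those primary libraries and below 20% in all 4 vehicle libraries. The shares of all 81297 CpGs that meet these limits were not computed. Choosing CpGs low in primary cells favours the first count over the second. The mean of vehicle exceeded that of primary replicates 3 and 4 by at least 25 points at 630 CpGs (8.36%) and fell short by at least 25 points at 205 (2.72%). Over all 81297 CpGs these shares were 9.62% and 15.8%. CpGs near 0 can hardly fall, and the set was chosen for low levels.

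**Figure D3:**
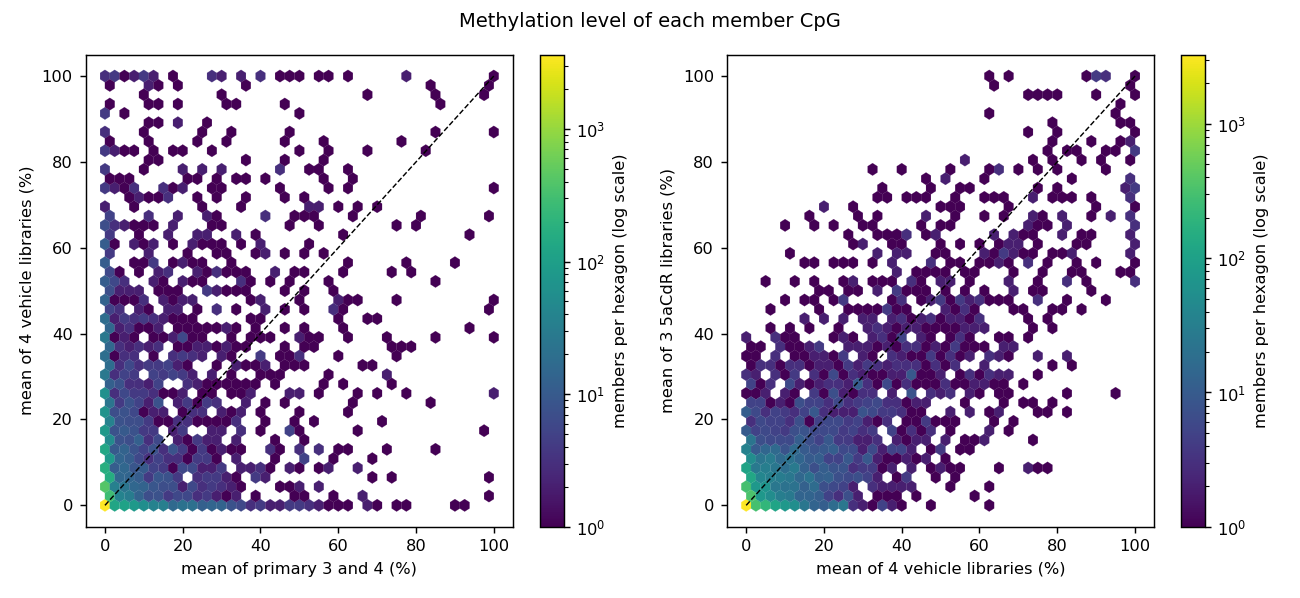
Level of each of the 7532 CpGs (%), as the mean of 4 vehicle libraries against the mean of primary replicates 3 and 4 (left) and the mean of 3 5aCdR libraries against vehicle (right), with the number of CpGs per hexagon in colour on a log scale and a dashed line of equality. On the left 630 CpGs lie at least 25 points above the line and 205 at least 25 points below, and on the right 89 and 258.

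MT2 exceeded the primary cells within every class of starting level, density and surroundings that was formed. At the 5865 CpGs with no methylated read in primary replicates 1 and 2, vehicle was at 6.13% ± 0.146 (SD, n = 4) and primary replicates 3 and 4 at 2.82% ± 0.346 (SD, n = 2), 2.17 times as high. At the 1175 CpGs that started at 5 to 20%, vehicle was at 22.6% ± 0.442 (SD, n = 4), 1.42 times the primary level of 15.9% ± 1.1 (SD, n = 2). In points the gap was 3.31 in the first class and 6.71 in the second. At density 10 to 14 vehicle was at 11.2% and primary cells at 6.76%, and at density 15 to 19 they were at 7.06% and 3.50%. Within 500 bp of a dense CpG the levels were 6.88% and 3.09%, and with none within 2000 bp 13.5% and 9.07%. The lower level near dense CpGs was thus found in both kinds of cell.

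Levels also differed with the surroundings. CpGs with a covered neighbour at 20% or more were at 21.1% ± 0.501 (SD, n = 4) with vehicle and 16.4% ± 1.56 (SD, n = 2) in primary replicates 3 and 4. CpGs whose covered neighbours were all below 20% were at 5.78% ± 0.255 (SD, n = 4) and 2.24% ± 0.218 (SD, n = 2), 2.58 times the primary level. In each of these classes every vehicle library lay above both primary libraries (exact permutation test, p = 0.0667 each, adjusted over 13 classes 0.0722). The 230 CpGs on contigs named APMT were at 5.33% ± 0.811 (SD, n = 4) with vehicle and 4.24% ± 0.00537 (SD, n = 2) in primary cells, which missed the smallest p (exact permutation, p = 0.2). Differences of the gap in points between paired classes were computed for both comparisons (8 tests, exact permutation, adjusted p from 0.114 to 0.333). With these numbers of libraries none could pass after adjustment over 8. For start levels of 5 to 20% against 0, the gap to primary cells was larger by 3.40 points (exact permutation, p = 0.0667, adjusted 0.163).

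**Figure D4:**
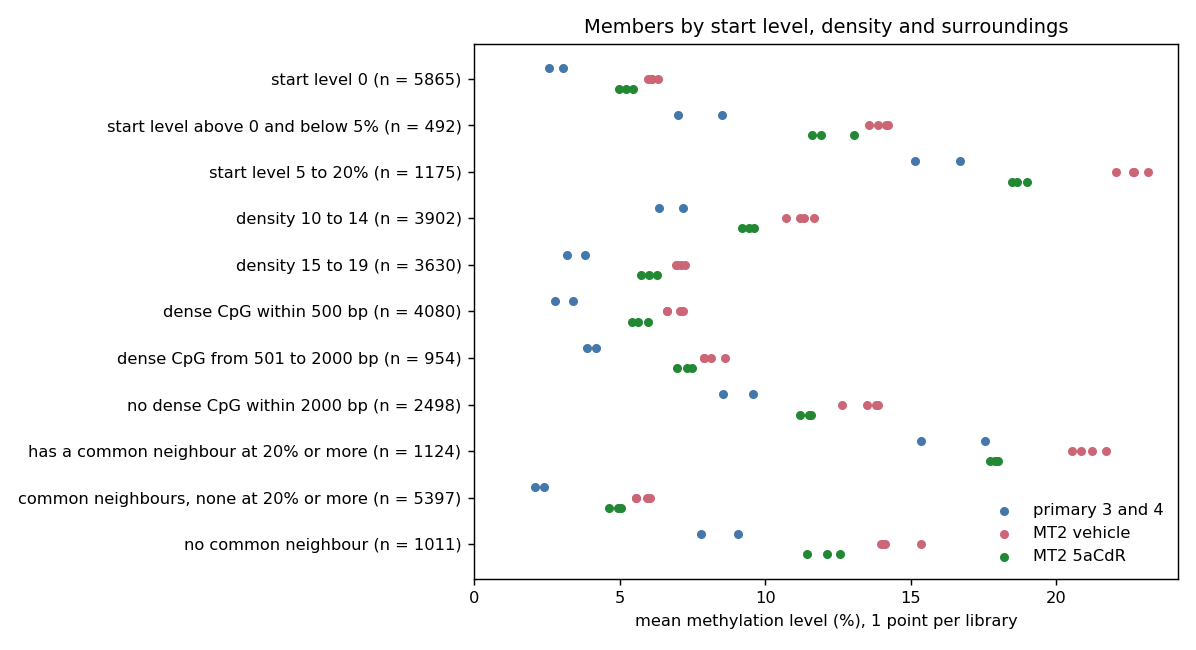
Mean level (%) of the CpGs by starting level in pooled primary replicates 1 and 2, by density, by distance to a dense CpG and by neighbours, with 1 point per library of primary replicates 3 and 4, MT2 vehicle and MT2 5aCdR. In each of the 11 classes shown the vehicle points lie to the right of the primary points, and the 2 classes with the highest levels in all groups are CpGs that started at 5 to 20% and CpGs with a neighbour at 20% or more.

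Nearby CpGs of the set were more often methylated together than distant ones. When a CpG was at 50% or more in the pooled vehicle reads, the next CpG of the set was so too in 51.9% of 52 cases at 2 to 20 bp, beside 2.13% of the next CpGs in all pairs at that distance. Above that and up to 100 bp it was 32.7% of 55 cases beside 3.09%, and from there up to 1000 bp 22.2% of 18 cases beside 7.63%. Up to 10000 bp it was 15% of 20 cases beside 7.57%, and up to 1000000 bp 8.84% of 181 cases beside 7.77%. The 2 middle classes rest on few cases. CpGs at the shortest distances can share the same sequenced fragments, and so the same molecules.

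The higher level in MT2 was found on most scaffolds that held many of the CpGs. Of the 371 scaffolds with CpGs of the set, 39 held at least 50 each, together 3507 of the 7532. On 37 of the 39 scaffolds with at least 50 of the CpGs, the mean of vehicle was above that of primary replicates 3 and 4, without overlap between libraries on 23. The other 2 scaffolds were lower with overlap, the lowest at -0.289 points (KB708344.1). The median gap over the 39 was 3.6 points and the largest was on KB708209.1. Its 67 CpGs were at 19.7%, 15.7%, 20.1% and 14.4% in vehicle replicates 1 to 4 and at 6.24% and 8.92% in primary replicates 3 and 4. Scaffold KB708147.1 held 361 of the CpGs, at 13.9% with vehicle and 7.80% in primary cells. Without that scaffold the mean over the remaining 7171 CpGs differed by 3.93 points between vehicle and primary cells.

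Regions were tested as 1 kb tiles with at least 3 CpGs, on the summed reads of all covered CpGs in the tile, by a quasi-binomial logistic model with p adjusted over all tiles by Benjamini-Hochberg. Within a tile the spread between libraries came mostly from vehicle wells of 1 line, and the single-CpG fits below share this limit. Over all 17412 tiles tested between vehicle and primary replicates 3 and 4, 4.55% were called higher in MT2 and 7.17% lower at an adjusted p below 0.05. Among the 994 tiles with at least 3 of the medium-density unmethylated CpGs, 72 (7.24%) were higher and 6 (0.604%) lower. The set needed 10 reads in all 11 libraries, and the other CpGs tested needed them only in the libraries compared. CpGs near 0 can hardly fall, and both limits hold for the shares of calls below. The 72 rose by 3.50 to 81.1 points over all their CpGs. Only 17 of them held no other CpG than those of the set. On the set's CpGs alone, the mean of vehicle was the higher in 71, and every vehicle library lay above both primary replicates 3 and 4 in 53. Of them 26 rose by at least 25 points, and they lay on 55 scaffolds, 8 of them on KB708147.1. A dense CpG was within 500 bp in 58.3% of the 72 and in 58.0% of all 994 tiles, which are nearly the same share. Without primary replicate 3 there were 10 calls in all and without replicate 4 there were 4. In these fits the lone primary library was assumed to vary like the vehicle wells. Leaving out a vehicle library gave 57 to 61 calls. limma on log ratios called 41.

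By a rule set on size and separation, 15 higher and 2 lower tiles are named. Values given per library are means over the set's CpGs in the tile, whereas the test used all covered CpGs there. In all 15 higher tiles each vehicle library lay above both primary replicates 3 and 4 on the set's CpGs, a separation that the rule asked of whole tiles. The largest rise was at 4952001 to 4953000 of KB708169.1, whose 3 CpGs were at 92.2%, 60.4%, 100% and 83.3% in vehicle replicates 1 to 4. They were at 0% and 2.08% in primary replicates 3 and 4, and at 47.8%, 72.1% and 28.1% after 5aCdR. The whole tile rose by 81.1 points (quasi-binomial test, adjusted p = 0.0017). On KB708308.1 at 293001 to 294000, 3 of the 8 covered CpGs belonged to the set. These 3 were at 72.1%, 80.7%, 87.0% and 67.9% with vehicle, 11.7% and 2.55% in primary replicates 3 and 4, and 31%, 52.4% and 64.8% after 5aCdR. Among the 15 this tile's adjusted p was the lowest (quasi-binomial test, 5.21e-05), and all 3 5aCdR libraries lay below all vehicle libraries.

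KB708147.1 held 3 of the 15 tiles. At 4560001 to 4561000, 6 CpGs of the set were at 74.2%, 73.0%, 72.3% and 67.8% with vehicle and at 3.62% and 3.81% in primary replicates 3 and 4. After 5aCdR they were at 60.6%, 83.8% and 32.7%, a far wider range than between the vehicle wells. At 1569001 to 1570000, 4 CpGs were at 52.8%, 75.6%, 65.3% and 60.1% with vehicle, 7.29% and 3.44% in primary cells and 56.9%, 54.9% and 56.2% after 5aCdR. At 6240001 to 6241000, 4 CpGs were at 44.8%, 35.4%, 44.8% and 43.0% with vehicle, 0% and 4.56% in primary cells, and 48.6%, 36.4% and 49.6% after 5aCdR. In all 3 tiles the libraries with and without 5aCdR overlapped, and both primary libraries lay below all MT2 libraries.

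The largest group of CpGs within 1 named tile, 7 of them, lay at 7884001 to 7885000 of KB708228.1, more than 100 kb from the nearest dense CpG (173859 bp). They were at 34.6%, 62.1%, 41.5% and 37.2% with vehicle and at 8.69% and 5.17% in primary replicates 3 and 4 (adjusted p = 0.00372, quasi-binomial test). At 20770001 to 20771000 of KB708133.1, the most deeply read of the 15 tiles (median 1204.5 summed reads per library), 5 CpGs were at 67.2%, 56.5%, 72.6% and 25.4% with vehicle and 2.34% and 2.2% in primary cells. The 4 CpGs at 1136001 to 1137000 of KB708291.1 were at 75.0%, 75.0%, 90.5% and 47.2% with vehicle, at 9.62% and 0% in primary cells, and at 80.5%, 100% and 48.5% after 5aCdR. A tile at 3739001 to 3740000 of KB708262.1 showed how far fetuses could differ, with 1.88% in primary replicate 3 and 49.9% in replicate 4 beside 79.7% to 100% with vehicle. At 1417001 to 1418000 of KB708321.1 the 3 CpGs of the set were fully methylated in all vehicle libraries. They were at 8.12% and 0% in the choosing primary replicates and at 45.8% and 50.1% in replicates 3 and 4. After 5aCdR they were at 99.0%, 20.1% and 100%. Of the other 5 higher tiles the rises were 35.8 to 63.6 points, with adjusted p from 0.000751 to 0.017 in the quasi-binomial test.

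The 2 named lower tiles had to be methylated in primary replicates 3 and 4, given the choice of CpGs and the size of fall asked for. At 678001 to 679000 of KB708347.1 the 3 CpGs were at 0% in all vehicle libraries, 31.9% and 53.2% in primary replicates 3 and 4, and 0% and 15.4% in replicates 1 and 2 (quasi-binomial test, adjusted p = 0.00204). At 4048001 to 4049000 of KB708244.1 the 3 CpGs of the set were at 17.1%, 47.6%, 0% and 0% with vehicle and 34.6% and 29.8% in primary replicates 3 and 4. There the set's own CpGs overlapped between the groups, and the whole tile of 7 CpGs did not, at 17.2% ± 8.66 against 51.8% ± 11 (SD, 4 and 2 libraries). Of all 17 named tiles, 6 were still called without primary replicate 3, 4 without primary replicate 4, and 16 or 17 without each vehicle library. Without primary replicate 3 or 4 their differences were still 28.0 to 82.1 points in size, with adjusted p from 0.0207 to 0.226 (quasi-binomial test).

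**Figure D5:**
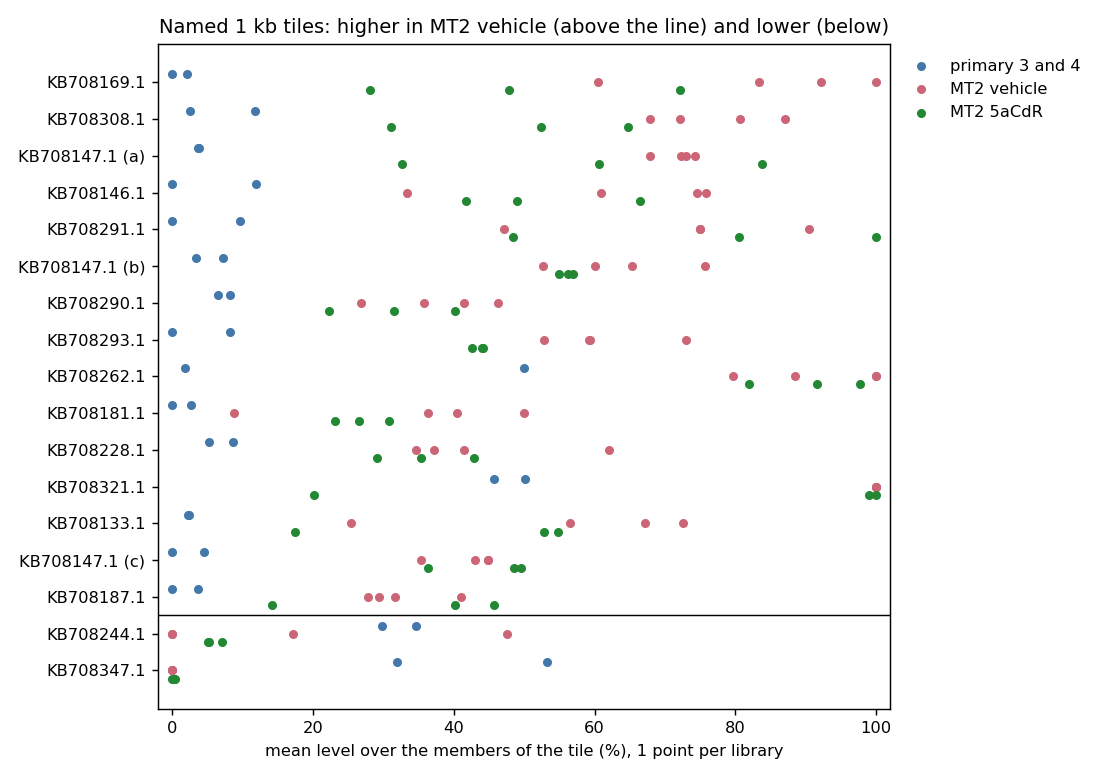
Mean level (%) over the set's CpGs in each of the 17 named 1 kb tiles, labelled by scaffold (letters tell apart tiles of 1 scaffold by size of the rise), with 1 point per library. In the 15 tiles above the line all vehicle points lie to the right of both primary points, a separation that the naming rule asked of whole tiles. In the KB708347.1 tile below the line vehicle is at 0% with primary at 31.9% and 53.2%.

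Among single CpGs the same model called 0.928% of 147189 CpGs higher in MT2 than in primary replicates 3 and 4 and 1.58% lower. Of the 7532 medium-density unmethylated CpGs, 67 (0.890%) were called higher, a share close to that of all CpGs, and 15 (0.199%) lower. These 82 calls did not hold when wells were left out: there were 0 without vehicle replicate 1, 2, 3 or 4 (575 to 624 at an unadjusted p below 0.05), and 70 and 65 without primary replicate 3 or 4. limma on log ratios called 113. Counted by libraries that did not overlap, with no p, 384 of the 7532 (5.10%) were higher in all vehicle libraries than in both primary ones and 188 (2.50%) lower, beside 5.33% and 9.4% of all CpGs tested. Of the 5 largest rises outside the named tiles, the CpG at 712649 of KB708355.1 was at 100% in all 4 vehicle and all 3 5aCdR libraries and at 0% in all 4 primary libraries, from a median of 25 reads (quasi-binomial test, adjusted p = 0.0241). The CpG at 18871886 of KB708157.1 was at 99.4% to 100% with vehicle, 5.00% and 0% in primary replicates 3 and 4, and 78.2%, 77.9% and 33.3% after 5aCdR. The CpG at 12091862 of KB708159.1 was at 92.1% in vehicle replicate 1, 100% in the other vehicle libraries and 0% in all primary libraries. At 2403317 of KB708274.1 and 1253335 of KB708249.1 all vehicle libraries were at 100%, with at most 7.32% and 9.09% in primary replicates 3 and 4.

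The 5 largest falls were by construction CpGs low in primary replicates 1 and 2 together and high in replicates 3 and 4. At 18413291 of KB708146.1 and at 2840861 of KB708232.1 primary replicates 1 and 2 and all 7 MT2 libraries were at 0%. Primary replicates 3 and 4 were at 79.5% and 100% at the first of these and at 68.4% and 73.4% at the second. At 7774773 of KB708199.1 primary replicates 3 and 4 were at 100% and 85.7% and the vehicle libraries at 0%, with 21%, 0% and 22.3% after 5aCdR. At 2101012 of KB708217.1 the primary replicates in order were at 18.8%, 0%, 100% and 96.8%, and at 2723047 of KB708281.1 at 40%, 0%, 100% and 53.3%. Of the 10 named CpGs, 6 and 7 were still called without primary replicate 3 or 4, and 0 without any 1 of the vehicle libraries. In the fits without 1 vehicle library their differences were 70.9 to 100 points in size, with adjusted p from 0.0711 to 0.119 (quasi-binomial test).

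The second comparison asked what 5aCdR did to these CpGs in MT2, in which neither group took part in choosing them by level. The 5aCdR libraries had mean levels of 8.0%, 7.54% and 7.81%, all below the lowest vehicle library (9.03%). The means were 7.78% ± 0.235 (SD, n = 3) and 9.22% ± 0.183 (SD, n = 4), a fall of 1.44 points or a relative change of -15.6% (exact two-sided permutation test, p = 0.0286, the smallest of 35 splits). 5aCdR thus left the CpGs above the primary level, at 1.5 times that of primary replicates 3 and 4. That difference was 2.59 points (exact permutation, p = 0.1, the smallest of 10 splits), and 1.58 points when primary replicate 1 alone chose the CpGs. At mitochondrial CpGs 5aCdR differed from vehicle by -0.640 points, in the same direction as at the set's CpGs (exact permutation, p = 0.0857). Whether these changes are linked was not tested. Of the 994 tiles with at least 3 of the CpGs, 47 (4.73%) were called higher after 5aCdR than in primary replicates 3 and 4 and 8 (0.805%) lower, beside 2% and 6.67% of all 41234 tiles tested. At single CpGs 1 was called higher and 0 lower, beside 0.00296% and 0.0619% of 337521. At an unadjusted p below 0.05 they were 357 (4.74%) and 190 (2.52%), beside 2.92% and 9.14% of all CpGs. Without overlap 601 (7.98%) were higher and 267 (3.54%) lower, beside 4.9% and 12.9%. The set needed 10 reads in all 11 libraries, and the other CpGs tested needed them only in the libraries compared. CpGs near 0 can hardly fall.

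Fewer of the CpGs were highly methylated after 5aCdR. The share at 50% or more was 4.57%, 4.58% and 4.58% after 5aCdR and 6.32% to 7.51% with vehicle (exact permutation test, p = 0.0286, adjusted over 6 shares 0.0857). The share at 20% or more was 13.5% ± 0.277 (SD, n = 3) and 15.2% ± 0.565 (SD, n = 4), with the same exact permutation p and adjusted p. At 80% or more the shares were 1.61% to 1.73% and 2.62% to 4.13% (exact permutation, p = 0.0571, adjusted 0.114). The share between 20 and 80% did not separate, at 11.8% in both (exact permutation, p = 1). The low end did not move down. A level of exactly 0 was read at 68.5% of CpGs after 5aCdR and 73.9% with vehicle (exact permutation, p = 0.171). Levels below 5% were read at 74.3% and 77.0% (exact permutation, p = 0.314), and the libraries overlapped in both shares. The 5aCdR libraries were deeper, and the part of depth in these shares was not tested. The share at 0 was 77.1% and 78.4% in vehicle replicates 2 and 3 (31 reads). At similar depth it was 70.3% in 5aCdR replicate 2 (59 reads) and 69.4% in vehicle replicate 1 (57 reads). In the same single libraries 1.61% and 2.84% of CpGs were at 80% or more. By the mean over libraries, 258 CpGs (3.43%) fell by at least 25 points and 89 (1.18%) rose by as much, beside 10.1% and 2.22% of all 81297 CpGs.

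The relative change was between -17.5% and -10.8% in the classes of starting level, density and surroundings. It was -14.9% at CpGs that started at 0 (from 6.13% to 5.22% ± 0.252, SD, n = 3) and -17.3% at those that started at 5 to 20% (from 22.6% to 18.7% ± 0.270, SD, n = 3). The changes in points were -0.911 and -3.92, and their difference of -3.01 points had an exact permutation p = 0.0286 (adjusted over 8 tests 0.114). Within 500 bp of a dense CpG the relative change was -17.5%, above that and up to 2000 bp -10.8% and farther away -15.1%. With a neighbour at 20% or more it was -15.2%, and -15.6% where the covered neighbours were all below 20%. In all 11 classes of starting level, density and surroundings every 5aCdR library lay below every vehicle library (exact permutation, adjusted over 13 classes p = 0.0310). On the APMT contigs the libraries overlapped, at 4.67% ± 0.445 (SD, n = 3) and 5.33% ± 0.811 (SD, n = 4) (exact permutation, adjusted p = 0.229). Of the 39 scaffolds with at least 50 of the CpGs, 36 were lower after 5aCdR, 6 of them without overlap.

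Few single regions of the set passed the test between 5aCdR and vehicle. Over all tiles 0.783% of 18639 were called lower and 0.0161% higher, and of the 994 tiles of the set 1 was lower and 0 were higher (16 higher and 40 lower at an unadjusted p below 0.05, or 1.61% and 4.02%, beside 1.23% and 11.1% of all tiles). limma on log ratios called 0. The single tile, named after its values were seen, was at 21524001 to 21525000 of KB708137.1, at 0.0741% ± 0.128 after 5aCdR (SD, 3 libraries) and 12.4% ± 7.29 with vehicle (SD, 4 libraries; quasi-binomial test, adjusted p = 0.0364). Its 3 CpGs of the set were at 0% in every library but vehicle replicate 4 (21.4%), so in the other vehicle libraries the higher level lay at its other 5 CpGs. It was not called without 5aCdR replicate 1, 2 or 3 or without vehicle replicate 1, 3 or 4. At single CpGs, 0.084% of 155920 were called lower and 0.000641% higher, and 0 of the 7532 were called by the quasi-binomial test or by limma (67 higher and 151 lower at an unadjusted p below 0.05 in the first, or 0.890% and 2.00%, beside 1.19% and 7.58% of all CpGs).

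CpGs of the set that MT2 had methylated were followed separately. In pooled vehicle replicates 1 and 2, 418 of the 7532 were at 50% or more, and 248 of them (59.3%) were so again in pooled vehicle replicates 3 and 4, while 54 were below 20% there. In primary replicates 3 and 4 pooled, 65 of the 418 were at 50% or more and 221 below 20%. Their mean was 58.3% and 57.3% in vehicle replicates 3 and 4, which had not chosen them, 51.3%, 48.2% and 48.3% after 5aCdR, and 22.6% and 25.8% in primary replicates 3 and 4. After 5aCdR it differed by -8.51 points, a relative change of -14.7%, with no overlap (exact permutation test, p = 0.1, the smallest of 10 splits). The change was -4.79 points when vehicle replicate 1 was left out and replicate 2 alone chose the CpGs. The 3588 medium-density CpGs at 50% or more in both the choosing primary and the choosing vehicle libraries went from 81.1% ± 0.600 (SD, n = 2) to 71.2% ± 0.606 (SD, n = 3), a relative change of -12.2%. The falls of the 2 sets differed by 1.39 points (exact permutation, p = 0.2), and by 4.78 points without vehicle replicate 1 (exact permutation, p = 0.1).

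The 72 tiles higher in MT2 are described after 5aCdR without a test, since vehicle libraries and primary replicates 3 and 4 chose them. High levels with vehicle and low levels in these primary replicates are partly set by that choice. The median over tiles of the mean level of the set's CpGs was 1.25% in primary replicates 3 and 4, 1.43% in replicates 1 and 2, 18.5% with vehicle and 12.3% after 5aCdR. In 12 of the 15 named higher tiles the mean was lower after 5aCdR than with vehicle, in 2 of them without overlap. In 14 of the 15 every 5aCdR library still lay above both primary replicates 3 and 4.

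Dense and sparse CpGs chosen by the same limit moved in the same directions with other sizes. The 19092 dense CpGs (20 or more nearby) were at 3.01% ± 0.0636 (SD, n = 4) with vehicle and 1.17% ± 0.0810 (SD, n = 2) in primary replicates 3 and 4. The 8753 sparse CpGs (1 to 9 nearby) were at 19.9% ± 0.270 (SD, n = 4) and 16.2% ± 0.436 (SD, n = 2). As a ratio, vehicle was 2.56 times the primary level at dense, 1.78 times at medium and 1.23 times at sparse CpGs, the opposite order to that of dense and medium CpGs in points. In points the gain at medium density exceeded that of dense CpGs by 2.2 (exact permutation, p = 0.0667, adjusted over 4 tests 0.0889). It exceeded that of sparse CpGs by 0.307 (exact permutation, p = 0.2), a difference that turned to -0.867 when all classes were limited to CpGs below 5% in primary replicates 1 and 2. When primary replicate 2 or replicate 1 alone chose the CpGs, it was 1.92 and 2.42. The change after 5aCdR at medium density minus that at dense CpGs was -1.01 points, and minus that at sparse CpGs 1.78 points, so the fall was larger than the one and smaller than the other (exact permutation, p = 0.0286 and adjusted 0.0571 for each).

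With CpGs in the same class of level in primary replicates 1 and 2, the density classes still differed in level, in primary replicates 3 and 4 too. At CpGs with no methylated read in primary replicates 1 and 2, primary replicates 3 and 4 had 0.847% at dense, 2.82% at medium and 11.3% at sparse CpGs. Vehicle had 2.42%, 6.13% and 15.4%, and 5aCdR 2.11%, 5.22% and 12.9%. The gain in points grew from dense to sparse (1.58, 3.31 and 4.09), and the ratio of vehicle to primary cells fell in that order (2.86, 2.17 and 1.36). At a start of 5 to 20% the order of the gains was another, with 5.16 points at dense, 6.71 at medium and 2.48 at sparse CpGs. There primary replicates 3 and 4 averaged 5.95%, 15.9% and 24.3% in the same order. The relative fall after 5aCdR lay between -20.0% and -12.7% over all 9 combinations of start and density.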

How the data were processed

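Reduced representation bisulfite libraries were made from 100 ng of genomic DNA per the labels' protocols. The submitters' processing notes name methylKit 1.10.0 in R 3.6.1, the aligner Bismark 0.22.1 with Bowtie2, the trimmer Trim Galore 0.5.0, and bcl2fastq 2.20.0.42. The genome build and any removal of duplicates are not given in the sources used here, so scaffolds and 1-based positions are the files' own, and no gene names or sequences are given. Per the file headers, each deposited table gives a read count for every listed strand position (from 10 reads upward) and how many percent of its reads were C or T.

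The number of methylated reads was taken as the read count times its percent of C, rounded, and forward and reverse positions were summed per CpG. Levels are unweighted means over CpGs. Counting intervals are not given, because reads are not independent molecules. Library means were compared by exact two-sided permutation tests. Single CpGs and 1 kb tiles were tested over the whole table with a quasi-binomial logistic model, whose Pearson dispersion was moderated by the method of limma 3.58.1 and not allowed below 1, with Benjamini-Hochberg adjustment over all units. The prior came from units that had 10 or more reads of either kind, methylated and unmethylated. The test was tried on simulated data in which all units had the same dispersion, so the trial does not cover units or groups that differ in it. Python 3.11.15, numpy 2.4.6, scipy 1.17.1, pandas 2.3.3 and R 4.3.3 were used.

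The CpGs, classes and tests were chosen with earlier results of these data known. Named tiles are, among called tiles with at least 3 of the CpGs whose libraries did not overlap and whose groups were 25 points or more apart, the 15 largest rises and 10 largest falls (all where fewer). Named CpGs are the 5 largest each way by the same limits, outside these tiles. No tile or CpG met this between 5aCdR and vehicle. The same-start classes and the values without KB708147.1 were added after the data were examined. Alternatives were 20 reads, pooled reads, a limit of 10%, separate strands, a coverage limit, swapped primary replicates, KB scaffolds only, other dispersions, limma, other tiles, each library left out, and a replicate block. Same-numbered libraries did not deviate together (correlations from -0.0280 to 0.0203 over 6 pairs).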

Additional observations from a re-analysis of the deposited data

Results flagged for a closer look

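Of 50 values reported for the 4 vehicle libraries, 4 had 1 library far from the other 3 by Dixon's test, in which chance flags about 1 in 20. For CpGs with no covered neighbour, vehicle replicate 3 had a mean of 15.3%, and the others lay between 14% and 14.1%. At the CpG at 12091862 of KB708159.1 vehicle replicate 1 was at 92.1% and the others at 100%. At 18871886 of KB708157.1 vehicle replicate 4 was at 99.4% and the others at 100%. At 2101012 of KB708217.1 vehicle replicate 1 was at 11.5% and the others at 0%. At these 3 CpGs the other libraries were all at 100% or all at 0%, so any deviation, however small, is marked by the test.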

How the results depend on the processing

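The mean difference between vehicle and primary replicates 3 and 4 kept its direction under all alternatives, at 3.41 to 4.39 points with single libraries left out. The change between 5aCdR and vehicle lay between -1.83 and -1.31 points with single libraries left out, where the exact permutation test cannot pass its threshold without 1 MT2 library. Calls of single features were less stable. For CpGs between vehicle and primary cells (82), there were 128 with dispersion from all 3 groups and 2986 with none, and 0 to 70 with 1 library left out, 0 without each vehicle library. For tiles (78), there were 32 with 20 reads or more (274 tiles tested), 650 with no dispersion, 41 with limma, and 4 to 61 with 1 library left out, 10 without primary replicate 3 and 4 without primary replicate 4. Between 5aCdR and vehicle, no dispersion gave 2711 CpGs (0 in the main test) and 538 tiles (1 in the main test). That 1 tile became 2 with dispersion from all 3 groups. It was 0 with 20 reads or more, limma, an upper limit on coverage, 500 bp tiles or the set's CpGs only, and 0 to 1 with 1 library left out. The gain beyond that of sparse CpGs (0.307 points) was -0.867 with all classes limited to below 5%. The cause of these changes was not tested. Depth limits the level of a single CpG, with a median of 31 reads in the shallowest libraries.

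Libraries with the same replicate number share only a number. With it as a replicate block, the change between 5aCdR and vehicle was -1.50 points (exact permutation, p = 0.25, the smallest possible), and that between vehicle and primary cells 3.90 points. Under the block 0 CpGs and 6 tiles were called between vehicle and primary cells, and 1 tile between 5aCdR and vehicle. No paired analysis was possible for 5aCdR against primary replicates 3 and 4 because they share fewer than 2 numbers.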
